A study of Mus musculus with 127 samples.

Results

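The cells compared here were erythroblasts of class D, which in these 2 genotypes is the class with the brightest Ter119 stain, from marrow of Flvcr-deleted and wild-type mice: 5 Flvcr-deleted cells and 13 wild-type cells, chosen by the class letter in their labels from the 127 single cells of the series. Flvcr-deleted mice carry the genotype Flvcr deleted on the C57BL/6J strain, and the wild-type mice are of the same strain with no treatment. The sources used here do not give the allele, how the deletion was made, or the age and number of the mice. All 5 Flvcr-deleted cells share one label prefix and all 13 wild-type cells another. What the prefix stands for is not stated, and it cannot be told apart from genotype. The series also holds cells of classes A to C and cells of erythropoietin-treated (EPO-treated) wild-type mice, of which the class C cells (9 Flvcr-deleted, 19 wild-type) and the 4 EPO-treated class D cells are given beside these. Because no animal is named, each genotype counted as 1 sample, no p-value was made from cells, and every SD describes the spread over these cells alone.

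Flvcr encodes a heme exporter of the plasma membrane. Red cell precursors make large amounts of heme for hemoglobin, and free heme is toxic, so its synthesis and export are matched to globin production. Developing red cells are driven by the transcription factor GATA1, which switches on globin, heme synthesis and membrane genes, and by erythropoietin, which signals through its receptor and the transcription factor STAT5. Ter119 is a surface antigen that appears as erythroblasts mature, and late erythroblasts stop dividing, condense and expel the nucleus and clear their mitochondria and ribosomes.

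Promoter sequences are shown for 3 genes on which the results below turn: the STAT5 target Cish, the heme synthesis gene Alas2 and Gata1 itself. They are RefSeq sequences of build GRCm38.p6, 250 bases before to 30 bases after the annotated start site, matched by symbol. The expression values rest on the older build mm9, so the coordinates belong to the sequences only. Capitals mark matches to TTCNNNGAA (the STAT motif) or AGATAA (the GATA motif, on either strand), and CCACACCC (KLF factors) was searched as well.
Cish: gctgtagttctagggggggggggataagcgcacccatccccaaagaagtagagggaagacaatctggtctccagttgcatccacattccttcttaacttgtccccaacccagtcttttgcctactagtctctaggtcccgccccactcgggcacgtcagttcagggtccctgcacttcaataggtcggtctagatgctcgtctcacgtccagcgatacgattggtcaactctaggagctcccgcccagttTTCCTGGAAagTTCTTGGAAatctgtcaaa
Alas2: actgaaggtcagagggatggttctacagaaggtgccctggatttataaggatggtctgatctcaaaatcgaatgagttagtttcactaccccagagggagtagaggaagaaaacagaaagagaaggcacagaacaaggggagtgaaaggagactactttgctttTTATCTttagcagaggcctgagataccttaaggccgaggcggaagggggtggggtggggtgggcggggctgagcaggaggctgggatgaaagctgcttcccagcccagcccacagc
Gata1: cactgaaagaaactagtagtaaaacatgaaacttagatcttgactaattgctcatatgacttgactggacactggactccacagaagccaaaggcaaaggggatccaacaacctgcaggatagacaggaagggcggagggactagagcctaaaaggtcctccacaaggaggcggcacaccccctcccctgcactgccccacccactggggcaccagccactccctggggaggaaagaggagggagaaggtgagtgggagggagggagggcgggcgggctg
The Cish promoter (chr9:107296409-107296688, plus strand) held 2 STAT matches, of which the first begins at the start site and the other begins 11 bases after it. The Alas2 promoter (chrX:150547167-150547446, plus strand) held 1 GATA match on the minus strand, 86 bases before the start site. The Gata1 promoter (chrX:7967881-7968160, minus strand) held no match to any of the 3 motifs in this window. Promoters of 1 chromosome, and those without the full window, were left out before counting. A gene without a promoter here may thus still have one in RefSeq. Over 250 bases before to 50 after the start, 12.7% of the 27025 genes left in the promoter table held AGATAA. The shares were 9.55% for TTCNNNGAA and 4.09% for CCACACCC. Of the 21 GATA1-activated genes with a promoter there, 7 held AGATAA (33.3%), as did 7 of 24 red cell membrane genes (29.2%), 5 of 20 erythroid transcription factors (25.0%) and 2 of 13 heme synthesis genes (15.4%). Among the genes compared below, 1874 of 2285 had a promoter among those counted, and 8.11% of these held AGATAA. The share was 9.14% of the 788 such genes that were lower and 6.96% of the 230 that were higher in Flvcr-deleted cells. A match is a description of the letters and not a bound site.

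The Flvcr-deleted cells, numbered 12, 15, 23, 26 and 38 in their titles, had normalized Ter119 values of 1.00, 0.849, 0.828, 0.840 and 0.886. The wild-type range was 0.759 to 0.9998, so cell 12 lay just above it and the others within it. Class C lay below, at 0.574 to 0.727 in Flvcr-deleted and 0.551 to 0.741 in wild-type cells. All 10 erythroid marker genes in the table were detected in both groups. The markers of granulocytes and monocytes (14), macrophages (12), B cells (8), T and NK cells (8) and progenitors (7) were at 0 in all 18 cells. Of 10 platelet markers, Gp1ba, Gp9 and Vwf were detected in wild-type cells only, with a summed RPKM of up to 83.4 in a cell. The targeted gene, listed under the symbol Mfsd7b, was at 0 in every class D cell of both genotypes, so it does not check the labels.

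The libraries differed in complexity. A gene was called detected at an RPKM (reads per kilobase of transcript, scaled to library size) of at least 1. The 5 Flvcr-deleted cells had 1052, 941, 1940, 1343 and 1214 detected genes, and the wild-type cells had 1255 to 2828 with a median of 1891. Globins took 76.0% to 96.1% of the summed RPKM in Flvcr-deleted cells (median 90.7%) and 52.7% to 92.3% in wild-type cells (median 84.6%). Estimated depth was alike, at about 3280000 to 4760000 reads in Flvcr-deleted and 2090000 to 4780000 reads in wild-type cells. Cell 23 stood apart from the other Flvcr-deleted cells, with the most detected genes and the lowest globin share. A total of 8 wild-type cells fell within the Flvcr-deleted range of detected genes, at 1255 to 1920, so that 3 Flvcr-deleted cells still lay below all 8. Values against those 8 cells alone are given where they turn a direction, end a call or move a printed difference by over 1.5 times, and for the main lists. The part of library complexity in the differences below was otherwise not tested.

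**Figure D1:**
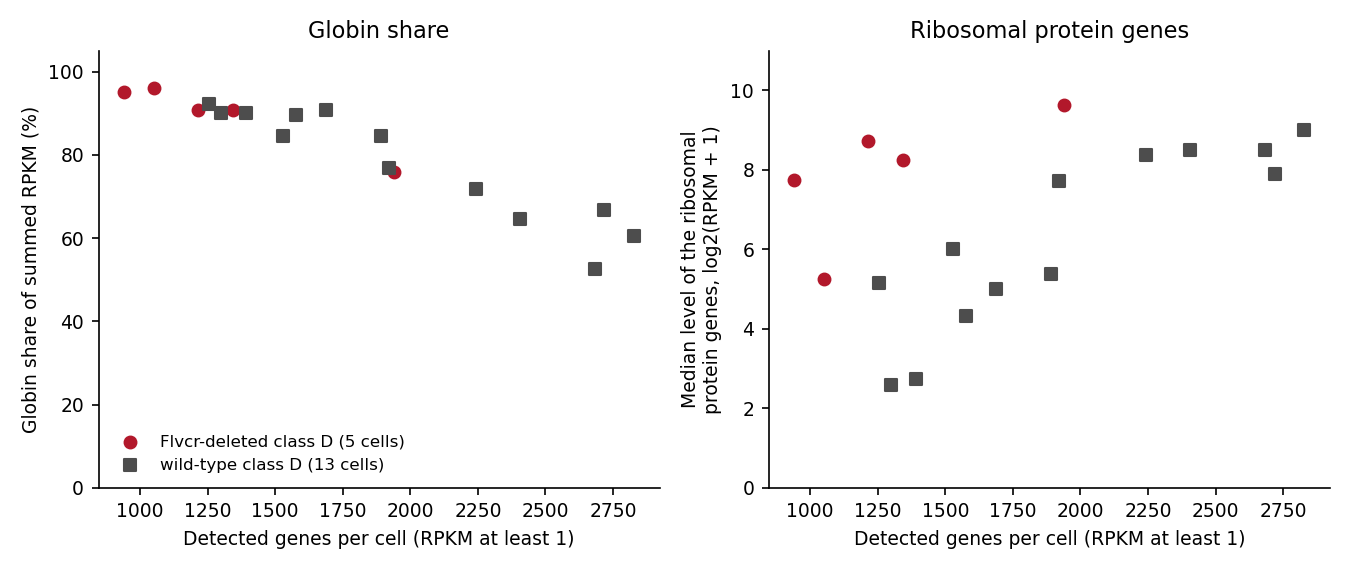
Each point is 1 class D cell: circles, 5 Flvcr-deleted; squares, 13 wild-type. The horizontal axes give detected genes per cell, the left vertical axis the globin share of summed RPKM in percent, and the right vertical axis the median level of 77 ribosomal protein genes in log2(RPKM + 1). Globin shares of the 2 groups lie along one band, while in the ribosomal panel 4 of the 5 Flvcr-deleted cells lie above all 8 wild-type cells with 941 to 1940 detected genes.

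Most genes were lower in Flvcr-deleted class D cells. Levels are log2(RPKM + 1), and a difference is the mean over Flvcr-deleted cells minus the mean over wild-type cells on that scale, which understates the change of genes near 0. A total of 2285 genes had a mean level of at least 1 over the 2 groups, and their median difference was -0.67. Of these, 291 genes (12.7%) were higher by at least 1 and 974 (42.6%) were lower by at least 1. By at least 2, 110 were higher and 535 lower. With every cell scaled to 1 sum the median was -1.05, with 203 genes higher and 1170 lower, and with that sum taken outside globins it was -0.47, with 389 and 872. After quantile normalization, which gives every cell the same set of values, the median was 0.025, with 628 higher and 643 lower. Differences below are as deposited and include the shift of -0.67 of the median gene. Against the 8 wild-type cells in the Flvcr-deleted range of detected genes, the median difference was -0.24, with 524 genes (22.9%) higher and 767 (33.6%) lower.

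Only 7 of the 2285 genes had no overlap at all between the 5 Flvcr-deleted and 13 wild-type cells: Cish was higher (0.0438% of the genes compared) and Gata1, Stom, Ctse, Hnrnpk, Ckap2l and Tuba1c were lower (0.263%). Ctse and Tuba1c are named because of this, after their values were seen. Leaving out cells of either group cannot make these 7 genes overlap, so such settings do not check them and can only add genes. Against the 8 wild-type cells in the Flvcr-deleted range of detected genes, 6 higher (0.263%) and 13 lower (0.569%) genes had no overlap. When 1 Flvcr-deleted cell was left out, the counts were 3 higher and 9 lower without cell 12, and 2 and 10 without cell 15. They were 2 and 12 without cell 23, 2 and 14 without cell 26 and 1 and 8 without cell 38. A change of scaling can end the lack of overlap. With every cell scaled to 1 sum, 6 of the 7 still had no overlap, all but Hnrnpk. With that sum taken outside globins, Cish, Ckap2l and Stom still had none. After quantile normalization Cish, Ckap2l and Hnrnpk had none.

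**Figure D2:**
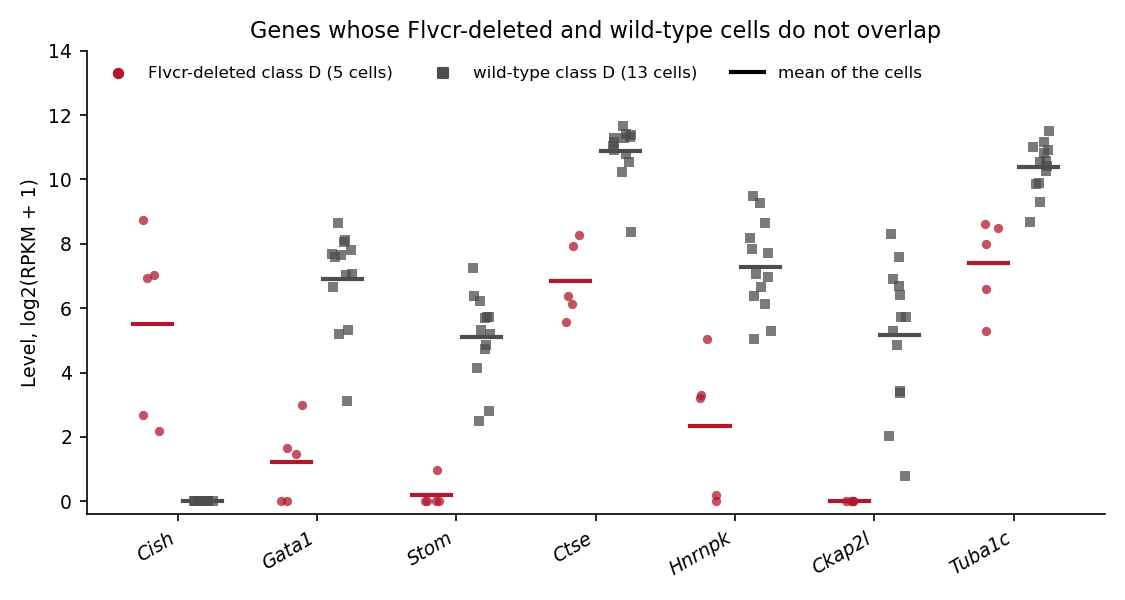
Levels in log2(RPKM + 1) of the 7 genes without overlap, 1 point per class D cell (circles, 5 Flvcr-deleted; squares, 13 wild-type) with the mean of each group as a bar. Cish is listed at 0 in all 13 wild-type cells, and for the other 6 genes the highest Flvcr-deleted cell lies below the lowest wild-type cell, by the least for Hnrnpk, Ctse and Tuba1c.

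Cish (NM_009895), a feedback inhibitor that STAT5 induces after erythropoietin binds its receptor, stood at 2.67, 6.93, 2.19, 7.02 and 8.75 in the 5 Flvcr-deleted cells. It was listed at 0 in all 13 wild-type cells. It was thus detected in 5 of 5 against 0 of 13 cells, with exact 95% intervals of 47.8% to 100% and 0 to 24.7% that cover counting error only. Pim1, a survival kinase gene also induced by STAT5, was at 5.83, 0, 5.00, 5.17 and 4.00 in Flvcr-deleted cells and detected in 2 of 13 wild-type cells, of which the highest reached 5.36 (difference 3.51). Fam132b, the gene of the iron-regulating hormone erythroferrone, was above 0 in all 5 Flvcr-deleted cells (0.52, 4.56, 0.12, 0.36 and 0.13) and exactly 0 in all 13 wild-type cells. Only cell 15 passed the detection limit for it (difference 1.14, and 0.28 without that cell), and its mean was too low for it to be among the 2285 genes.

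The other 2 compared genes of the same pathway were lower, and its remaining members were too low to compare. The cyclin gene Ccnd3 differed by -1.84 (-0.15 against the 8 cells in the Flvcr-deleted range of detected genes, and -3.23 without cell 38 or -1.15 without cell 12 or 15) and the survival gene Bcl2l1 by -2.61. Only 1 of 5 Flvcr-deleted cells held Bcl2l1, against 6 of 13 in the wild type. The genes of STAT5 itself (Stat5a, Stat5b) and of its other feedback inhibitors Socs1, Socs2 and Socs3 were listed at 0 in all 18 cells. These 0 values show no direction. The cyclin gene Ccnd2 was at 1.38 in cell 26 and at 0 in the other 17. Of 18 pathway members in the table, 4 were among the genes compared, with 2 higher and 2 lower (12.7% and 42.6% among all genes). In class C the differences were 1.62 for Cish, 1.50 for Pim1, -4.25 for Ccnd3 and -1.34 for Bcl2l1, and Cish was present in 5 of 9 cells against 4 of 19. The 4 EPO-treated class D cells had Ter119 values of 0.526, 0.358, 0.912 and 0.585, so 3 of them lay below every class D cell of the other groups. In these cells Cish ranged from 0.16 to 9.80 with a median of 7.92, and Pim1 from 0 to 8.34 with a median of 5.79. Values of the EPO-treated cells may have been processed apart from the others, so no difference was taken.

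Gata1 (NM_008089), the master regulator of red cell genes, was at 1.47, 0, 0, 3.00 and 1.66 in Flvcr-deleted cells, with a mean of 1.23 ± 1.27 (SD, n = 5 cells). In the 13 wild-type cells it ran from 3.12 to 8.64 with a median of 7.58 and a mean of 6.91 ± 1.53. The difference was -5.69, and -5.24 against the 8 wild-type cells in the Flvcr-deleted range of detected genes. It was -4.47 in class C. In the 4 EPO-treated class D cells, 3 of them with lower Ter119 and all possibly processed apart as given above, Gata1 ranged from 0 to 2.45.

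The other erythroid transcription factors were lower in part. Of 22 listed, Gata1 included, 13 were among the genes compared, of which 9 were lower and 1 was higher (median -1.32). Among all genes 42.6% were lower and 12.7% higher (median -0.67). Gfi1b, a repressor needed for red cell maturation, was seen in 1 of 5 against 9 of 13 cells (-3.59). Klf1, which activates adult beta-globin, was at 0, 6.51, 7.04, 5.02 and 0 against 2.43 to 8.75 in wild-type cells (median 7.48, difference -3.44). The 2 Flvcr-deleted cells at 0 lay below the wild-type range and the other 3 lay within it. Klf3 differed by -2.96 (-4.46 without cell 12, which held it at 7.48), Lyl1 by -2.01 and Lmo2, a GATA1 partner, by -1.90. Lmo2 was at -0.94 and Tal1 at -0.72 against the 8 wild-type cells in the Flvcr-deleted range of detected genes. Nfe2, which activates globin genes, and the cell cycle regulator E2f2 were at like levels, with differences of 0.26 and 0.46 that turned to -0.15 and -0.20 with every cell scaled to 1 sum. Without cell 15 they were 1.19 and 1.06, and Nfe2 was at -0.61 against the 8 wild-type cells. Tal1 (-1.08) and Sox6 (-1.19) turned to 0.64 and 0.32 after quantile normalization, and were -0.49 and -0.84 without cell 12. Tal1 was -0.60 without cell 23 and -2.06 without cell 38, where Sox6 was -0.74. The 1 member higher was Bcl11a (1.41), seen in 2 of 5 and 2 of 13 cells (0.48 without cell 26 and 0.91 without cell 23).

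Genes that GATA1 is known to activate were lower as a group. Of the 28 compared, Gata1 itself among them, 21 were lower and 1 was higher. Among all genes 42.6% were lower and 12.7% higher. The median of the list was -1.95, beside -0.67 for all genes. The median level over these 28 genes was 4.86, 2.75, 4.94, 4.14 and 3.21 in the 5 Flvcr-deleted cells and 4.96 to 7.61 in wild-type cells, without overlap. The median difference was -2.23 against the 8 wild-type cells in the Flvcr-deleted range of detected genes. The per-cell levels overlapped under all 3 other scalings, while the median of the list minus that of all genes ran from -1.52 to -0.999 over the 4 scalings. Trim10, an erythroid ubiquitin ligase gene, was at 2.88, 0.36, 2.86, 6.74 and 0 against 6.07 to 9.19 (-4.83). Of 8 genes that GATA1 is known to repress, only Lyl1 (-2.01) and Ikzf1 (-1.76) were among the genes compared, and both were lower too. The activated list shares 8 of its compared members with the heme synthesis list, so the lists are not independent.

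Heme synthesis genes were lower with no exception in direction against the whole wild-type group. All 13 compared members had a difference below 0, as had 68.0% of all genes. Of the 13, 10 passed -1, beside 42.6% of all genes, and the median of the list was -1.66 beside -0.67. Against the 8 wild-type cells in the Flvcr-deleted range of detected genes the median was -1.78. There 9 of 13 were lower, beside 33.6% of all genes, and Abcb6 was above 0, at 0.46. The per-cell median of the list was 4.59, 1.56, 6.03, 5.56 and 4.0999 in Flvcr-deleted cells and 6.48 to 7.60 in wild-type cells, without overlap. This and the GATA1-activated list were the only 2 of 30 lists whose cells did not overlap. With every cell scaled to 1 sum or after quantile normalization they overlapped, and with the sum taken outside globins they did not.

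Along the pathway, the glycine carrier Slc25a38 stood at 5.28, 0, 6.33, 0 and 4.81 in Flvcr-deleted cells against 3.55 to 10.19 (median 7.27) in wild-type cells, a difference of -3.80. Alas2, the erythroid enzyme of the first and rate-limiting step, stood at 9.84, 7.85, 6.14, 10.81 and 8.65 against 9.50 to 12.27 (-2.33). Cells 12 and 26 lay within the wild-type range and the other 3 below it. Alad, the next enzyme, differed by -1.66. Uros differed by -2.12 (-1.38 without cell 15 or without cell 23, and -1.31 against the 8 wild-type cells in the Flvcr-deleted range of detected genes). Urod, which follows it, was alike in both groups (8.31 ± 1.77 and 8.82 ± 1.02, difference -0.51, and -0.81 against those 8 cells), but differed by -3.64 in class C.

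Of the heme synthesis genes compared, Ppox and Fech, of the last 2 mitochondrial steps, had the lowest differences. Cpox, of the step before them, differed by only -1.61. Ppox, which oxidizes protoporphyrinogen, was at 4.41, 1.56, 7.11, 0 and 0 against 4.34 to 9.30 (-4.77). Fech, ferrochelatase, which inserts the iron, was at 0, 0, 3.33, 0 and 1.33, while 12 of 13 wild-type cells held it, with a median of 5.94 (-4.48). Fech did not overlap either against the 8 wild-type cells in the Flvcr-deleted range of detected genes, at -5.33. The importer genes Tmem14c (-1.57), Slc25a37 (-1.22), Slc25a39 (-0.86) and Abcb6 (-0.21) were lower by less. Against the 8 wild-type cells they were at -0.35, -2.08, -0.03 and 0.46. Tmem14c was at -0.13 without cell 12 and -2.42 without cell 23. Slc25a39 passed -1 without cell 12 (-1.07) or 23 (-1.43), as did Abcb6 without cell 23 (-1.08) or 26 (-1.25). Alas1, the housekeeping form of the first enzyme, was at 0 in all 18 cells.

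**Figure D3:**
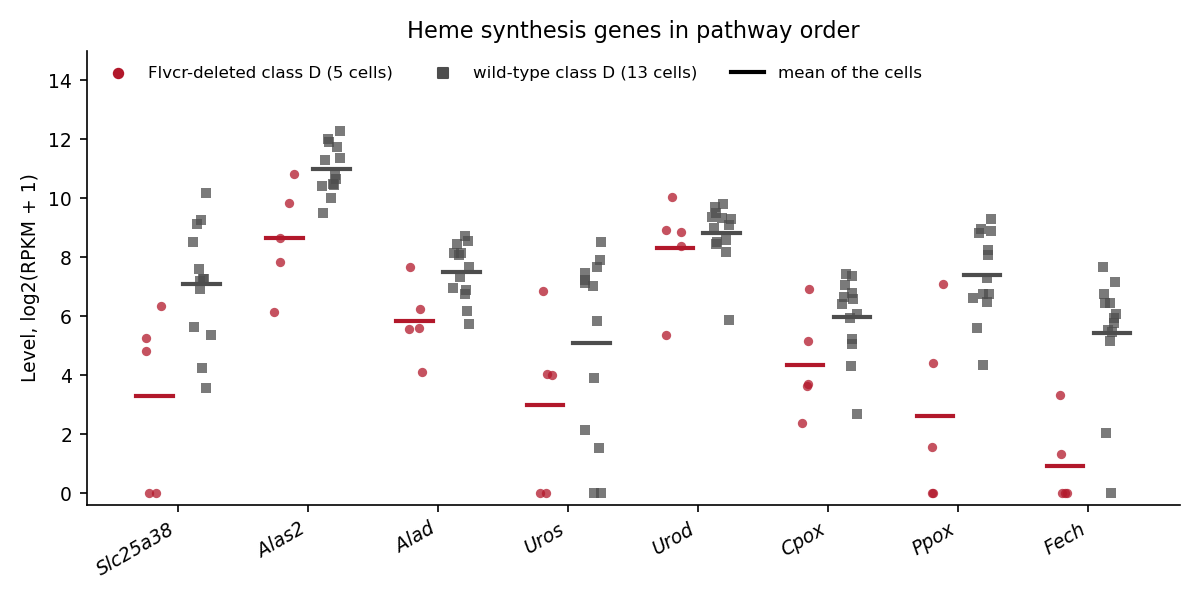
Levels in log2(RPKM + 1) of the glycine carrier gene Slc25a38 and 7 heme synthesis enzyme genes in pathway order, 1 point per class D cell (circles, 5 Flvcr-deleted; squares, 13 wild-type) with group means as bars. Ppox and Fech lie lowest relative to wild-type cells, at -4.77 and -4.48, and Urod is alike in both groups at -0.51.

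Adult alpha- and beta-globin genes were not lower. Of 12 globin genes compared 2 were higher and 2 lower, beside 12.7% higher and 42.6% lower among all genes. Adult alpha-globin (Hba-a1) was at 18.47, 18.79, 17.33, 18.03 and 18.22 in Flvcr-deleted cells against 15.63 to 18.17 (difference 1.01), and adult beta-globin (Hbb-b1) differed by 0.82. Both differences were 0.00 after quantile normalization, where the most abundant genes get the same value in each cell, and 0.33 and 0.14 with every cell scaled to 1 sum. Hba-a1 was under 1 without cell 12 (0.93), 15 (0.85) or 38 (0.99). Reads of the near-identical globin copies cannot be told apart. The 2 differences were 0.46 and 0.24 against the 8 wild-type cells in the Flvcr-deleted range of detected genes. The embryonic genes Hbb-bh1 (0.74), Hbb-y (0.68) and Hba-x (0.74) overlapped widely between the groups, and were at 0.045, -0.11 and -0.53 against those 8 cells. Without cell 23, Hbb-b1, Hbb-bh1 and Hba-x differed by 1.05, 1.82 and 1.46, and Hbb-y passed 1 without cell 15 (1.03) or 26 (1.34). The theta-globin gene Hbq1b was at 6.39, 8.28, 0, 7.97 and 5.93 against 6.13 to 9.83 (-1.79, and -0.37 without cell 23), and its copy Hbq1a differed by -1.03 (0.24 without cell 23, -1.53 without cell 15, and 0.060 after quantile normalization).

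Genes of the red cell membrane and its skeleton were lower: 17 of 25 compared (beside 42.6% of all genes), none higher, with a median of -1.42 beside -0.67. Stom (NM_013515), which encodes the membrane protein stomatin, was at 0 in 4 Flvcr-deleted cells and 0.98 in cell 15, against 2.51 to 7.25 in wild-type cells (-4.92). It was the 1 gene detected in all 13 wild-type and none of the 5 Flvcr-deleted cells. Tspo2, a cholesterol-binding protein of erythroid cells, differed by -4.21, the skeletal protein gene Dmtn by -3.23 and Epb4.2 (protein 4.2) by -3.09. Tspo2 was at 5.58, 8.89, 0, 1.42 and 0, so cells 12 and 15 were within the wild-type range of 4.27 to 8.91, and in class C its difference was 0.01. Ctse (NM_007799), a cathepsin that red cells carry, was abundant in both groups at 8.26, 5.56, 6.12, 6.39 and 7.95 against 8.36 to 11.66 (-4.02).

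Iron and heme handling genes differed one by one. Tfrc, the transferrin receptor through which erythroblasts take up iron, was at 9.52, 8.64, 7.06, 6.75 and 7.25 against 6.02 to 9.51, a difference of 0.06 that turned to -0.61 with every cell scaled to 1 sum and to -0.089 against the 8 wild-type cells. In class C it differed by -1.86. Ferritin light chain (Ftl1) was at 10.76 to 11.51 against 9.41 to 11.09 (0.66, and -0.01 with every cell scaled to 1 sum). Ncoa4, the receptor that sends ferritin to lysosomes, differed by -2.81 (-1.76 against the 8 wild-type cells). Of 6 iron uptake and storage genes compared 3 were lower and none higher, near the 42.6% lower among all genes. The heme exporter gene Abcg2 differed by 0.66 (1.46 without cell 23), and the heme importer Slc48a1 by -3.14. Hmox1, heme oxygenase, which heme itself induces, was at 6.75 in cell 26 and listed at 0 in the other 17 cells. Eif2ak1, the heme-regulated kinase that slows globin translation when heme is scarce, differed by -1.10, and by 0.11 against the 6 wild-type cells within the Flvcr-deleted range of Ter119. Without cell 15 it was -1.87, without cell 12 -1.78, without cell 38 -0.74, without cell 23 -0.82 and without cell 26 -0.30.

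Stress genes differed between single cells more than as a group. Of 10 integrated stress response genes compared, 5 were lower and 1 higher (median -0.95), near the shares of all genes (42.6% and 12.7%). Nupr1, a stress-induced chromatin protein gene, was at 3.72, 6.72, 0, 7.22 and 0 in Flvcr-deleted cells and listed at 0 in all wild-type cells. Ppp1r15a, the phosphatase subunit that ends the response, was at 8.19, 7.24, 5.01, 0 and 0 against 6.37 to 11.23 (-4.49). Ddit3 was seen only in cell 26 of the 5, against 8 of 13 wild-type cells (-2.08, and -1.29 against the 8 wild-type cells in the Flvcr-deleted range of detected genes). Metallothionein Mt1 was at 2.79 in cell 23 and 7.39 in cell 26 and undetected in the other 3 Flvcr-deleted and all 13 wild-type cells. Cdkn1a, which encodes the cell cycle inhibitor p21, was detected in cells 15 (2.60) and 26 (7.11) and listed at 0 in all wild-type cells. Cell 26 thus had the highest value of Hmox1, Mt1, Nupr1 and Cdkn1a. Without it the difference of Mt1 was 0.66 in place of 2.00 and that of Cdkn1a 0.77 in place of 2.04. Gclm, for glutathione synthesis, was at 6.94 in cell 12 and at most 0.33 in the other 4, against 3.35 to 6.52 in wild-type cells (-3.55).

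Division genes were mostly lower. Of 47 mitosis and spindle genes 38 were lower and 1 higher, beside 42.6% lower and 12.7% higher among all genes. The median of the list was -2.05, and -1.94 against the 8 wild-type cells in the Flvcr-deleted range of detected genes. The per-cell list median was 2.91, 0.05, 5.13, 4.73 and 0 against 3.47 to 7.10, so that cells 23 and 26 lay within the wild-type range and the other 3 below it. Ckap2l (NM_181589), a spindle protein, was at 0 in all 5 Flvcr-deleted cells and at 0.78 to 8.31 in wild-type cells. Ncaph, a condensin subunit, was seen in 0 of 5 against 11 of 13 cells, and Cdca8, of the chromosomal passenger complex, was at 0, 0, 2.88, 1.38 and 0 against 0.91 to 7.94 (-5.32). Cdk1 differed by -4.09.

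DNA replication genes depended on the wild-type cells used. Of 33 compared 23 were lower and none higher (median -1.70), beside 42.6% lower and 12.7% higher among all genes. Against the 8 wild-type cells in the Flvcr-deleted range of detected genes the median was -0.07, with 12 lower (36.4%) and 5 higher (15.2%). Among all genes 33.6% were lower and 22.9% higher against those 8 cells. The Flvcr-deleted cells themselves were apart, with 4, 3, 26, 16 and 23 of the 33 genes detected, against 4 to 32 in wild-type cells. The histone chaperone gene Asf1b was at 8.27 and 8.52 in cells 12 and 26 and at 0 in the other 3 (-4.25), and thymidine kinase Tk1 differed by -3.46.

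Genes for nuclear condensation and the cytoskeleton were lower too. Of 14 chromatin condensation and enucleation genes 11 were lower and 1 higher (median -2.26), beside 42.6% lower and 12.7% higher among all genes (median -0.67). Lbr, the lamin B receptor, was at 5.92, 0.08, 3.44, 0.73 and 3.72 against 5.22 to 8.97 (-4.72). Of 14 actin and tubulin genes 11 were lower and none higher (median -2.32), beside the same values for all genes. Tuba1c (NM_009448) was at 6.60, 5.29, 8.51, 7.99 and 8.61 against 8.68 to 11.51 (-2.98), and Tuba1a and Tuba1b, which share much of its sequence so that reads may be split among them, differed by -3.05 and -3.00. In class C these 3 tubulin genes differed by -5.45, -6.79 and -7.07.

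Ribosomal protein genes were higher, against the general shift. Of 77 compared 57 were higher and 1 lower, beside 12.7% higher and 42.6% lower among all genes. The median of the list was 1.69, beside -0.67 for all genes. All 77 ribosomal protein genes were detected in cells 15, 23, 26 and 38 and 57 of them in cell 12. The wild-type cells held 42 to 77 with a median of 65, and 5 of the 13 held all. Their share of the RPKM outside globins was 9.29%, 26.0%, 32.2%, 23.1% and 23.8% in Flvcr-deleted and 1.31% to 17.9% in wild-type cells (median 6.33%). Against the 8 wild-type cells in the Flvcr-deleted range of detected genes 73 of 77 were higher, beside 22.9% of all genes, and the median was 3.26. Rps25 was at 6.13, 9.29, 10.48, 8.91 and 10.11 against 0 to 10.02, with 7 of 13 wild-type cells holding it (4.09, and 6.95 against those 8 cells). Rps24 (3.28) and Rpl28 (3.18) showed differences of like size. Ribosomal protein genes have many near-identical copies, and how reads with several matches were counted is not given in the sources used here. Naca, of the ribosome-bound nascent chain complex, was at 5.63 to 8.47 in Flvcr-deleted cells and seen in 8 of 13 wild-type cells (3.25, and 4.93 against those 8 cells), but differed by -2.03 in class C.

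Genes of the respiratory chain were higher in part: 22 of 66 compared, with 10 lower and a median of 0.66. Among all genes 12.7% were higher and 42.6% lower, with a median of -0.67. Without cell 23 the list median was -0.17, and with every cell scaled to 1 sum it was 0.06. Against the 8 wild-type cells in the Flvcr-deleted range of detected genes it was 1.33, with 41 of 66 higher beside 22.9% of all genes. Uqcrb, a complex III subunit, had the largest difference of these 66 genes (4.79) at 5.69, 8.01, 7.65, 6.99 and 9.15, and 6 of 13 wild-type cells held it. Cox5b, of complex IV, was at 6.07 to 8.74 in Flvcr-deleted cells and seen in 10 of 13 wild-type cells (3.15, and 4.73 against those 8 cells). The complex III and V genes Uqcrc1 (-3.68) and Atp5b (-3.49) were lower. Timm8b, a mitochondrial import chaperone, was at 0 in cell 12 and at 6.81 to 8.04 in the other 4 (3.91).

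Short transcripts stood apart from longer ones. Among the compared genes with transcripts of 311 to 1291 bases, the shortest of 4 groups of nearly equal size, the median difference was 0.04, and -0.13 without ribosomal protein genes. In the next 3 groups it was -1.13, -0.98 and -0.70. The ribosomal protein and respiratory chain lists had median lengths of 833 and 709 bases, beside 1791 for heme synthesis and 1897 for GATA1-activated genes. The part of transcript length in these differences was not tested.

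Most clearance and antigen presentation genes were lower. Of 11 autophagy and mitochondrial clearance genes 9 were lower and none higher (median -1.54), beside 42.6% lower and 12.7% higher among all genes. In each of the 5 Flvcr-deleted cells the median of the list's values minus the wild-type means lay between -2.18 and -1.64. The median level of the list in cell 15 (3.21) was within the wild-type range of 2.43 to 5.90, and the other 4 lay below it. Atg4a, a protease that processes the autophagosome protein LC3, passed the detection limit in 0 of 5 against 9 of 13 cells, and Bnip3l, the receptor for mitochondrial removal in reticulocytes, in 1 of 5 against 12 of 13 (-2.65). Of 9 MHC class I genes 8 were lower and none higher, beside the same shares of all genes (median -2.88, beside -0.67 for all genes). B2m, the common light chain, was at 0, 0.31, 8.94, 6.03 and 0 against 4.70 to 9.16 (-4.87), so cells 23 and 26 were within the wild-type range. H2-L was at 0 in all 5 Flvcr-deleted cells and seen in 11 of 13 wild-type cells, though it shares sequence with other class I genes. Of 37 proteasome genes 16 were lower and 6 higher (median -0.76, and 0.023 against the 8 wild-type cells), near the shares of all genes (42.6% and 12.7%). Psmd10 was among the higher ones (3.45) and differed by -1.98 in class C.

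RNA-binding and translation factor genes followed the median gene more closely. Lists of hnRNP (15 compared, median -0.82), splicing factor (26, -0.99) and translation factor genes (34, -1.08) had 7, 13 and 18 lower members and 0, 4 and 3 higher ones. The all-gene shares were 42.6% lower and 12.7% higher, and the median gene stood at -0.67. Against the 8 wild-type cells in the Flvcr-deleted range of detected genes the medians of these lists were 0.10, -0.07 and -0.50. Hnrnpk (NM_001301345), which binds cytosine-rich RNA, was the member of these 3 lists without overlap, at 0, 0.21, 3.22, 5.04 and 3.29 against 5.05 to 9.50 (-4.93). Dazap2, a small adaptor protein gene, had the lowest difference of the 2285 genes, at 0, 6.46, 0.18, 0 and 0 against 3.60 to 9.48 (-6.37).

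**Figure D4:**
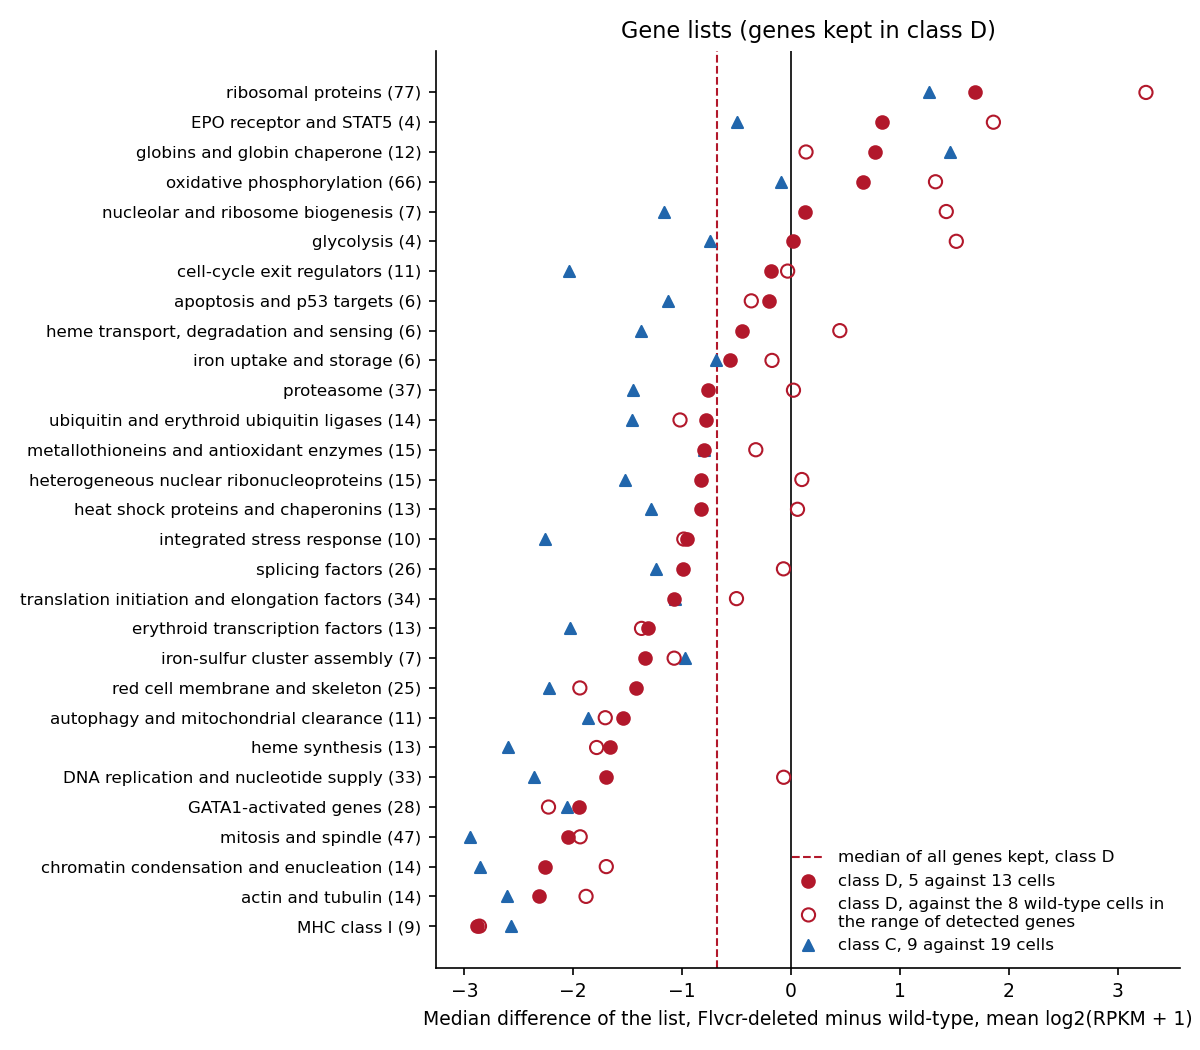
Median difference of each gene list, Flvcr-deleted minus wild-type in mean log2(RPKM + 1), for the 29 lists with at least 4 genes compared (number in brackets). Filled circles give class D, open circles class D against the 8 wild-type cells in the Flvcr-deleted range of detected genes, triangles class C, and the dashed line the median of all genes in class D (-0.67). Ribosomal protein genes lie highest (1.69) and MHC class I genes lowest (-2.88), and the DNA replication list moves most toward 0 in the open circles.

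Class C cells with the same 2 label prefixes are given side by side, since they are other cells. Of 2514 genes compared there, 152 (6.05%) were higher and 1339 (53.3%) lower, with a median of -1.11. Of the 974 genes lower in class D, 682 were lower in class C (70.02% of the class D genes, 50.9% of the class C genes) and 9 were higher. Of the 291 genes higher in class D, 74 were higher in class C (25.4% and 48.7%) and 51 were lower. The heme synthesis, GATA1-activated, ribosomal protein and mitosis lists had class C medians of -2.60, -2.06, 1.27 and -2.95. The respiratory chain list had -0.09 and the globins 1.46. The difference between the classes was not tested.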

How the data were processed

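Per the labels' protocols, single Ter119+ erythroblasts were caught with the C1 system, their cDNA was amplified by SMART-Seq, and Nextera XT gave the libraries. The submitters' processing notes name TopHat2 2.0.9 and the build mm9. The counting tool and any filter on cells or reads: not given in the sources used here. Values are RPKM as deposited by the authors, 34898 transcript rows under 24320 symbols. Where a symbol had several rows (5556 symbols), the row with the highest mean over all 127 cells was kept. A total of 4 columns matched no labelled sample and were not used.

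Levels were log2(RPKM + 1). The 2285 genes whose 2 group means averaged at least 1 were compared, and a difference of at least 1 in size was counted as higher or lower. Detected means an RPKM of at least 1. Depth was estimated from the smallest steps of the deposited RPKM values with annotated transcript lengths, and is approximate. Intervals on shares of cells are exact (Clopper-Pearson, 95%) and cover counting error only. Each label gives 1 cell and no animal, so no test was made.

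The compared cells, the 30 gene lists and the 8 lists of cell type markers were chosen with earlier results of these data known. Lists are not independent of each other. Genes named are, per direction, up to 15 with the largest differences whose mean and median differences both passed 1, genes detected in all cells of one group and none of the other, up to 4 per list, all members of the globin, transcription factor, heme synthesis and erythropoietin lists that were compared, and a few fixed genes of heme, iron and erythroid biology. Of the 184 genes so chosen the text gives the ones that carry each list, and some values are not reported here. Motifs were searched on both strands.

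The alternatives were other pseudocounts (0.1 and 10), no filter or one at a mean of 3, 3 other scalings, medians over cells, sums over a symbol's rows, wild-type cells within the Flvcr-deleted range of Ter119 (6) or of detected genes (8), and leaving out each Flvcr-deleted cell. The calculations were tested on simulated data, with known changes put only into genes well above 0 in every wild-type cell. Changes in genes near 0 were not tried. Python 3.11.15, pandas 2.3.3, numpy 2.4.6, scipy 1.17.1 and matplotlib 3.10.9 were used.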

Additional observations from a re-analysis of the deposited data

Results flagged for a closer look

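In 30 of 128 values examined, 1 of the 5 Flvcr-deleted cells stood so far from the other 4 that its gap exceeded 0.71 of the whole range. Chance gives this in about 1 in 20 groups of normally spread values, and a gene at 0 in 4 cells meets it with any value in the fifth.

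Cell 23 stood apart in its globin share (76.0%), in the median levels of the globins (9.90), the proteasome (4.37), splicing factors (4.08) and translation initiation and elongation factors (3.99), and in Abcg2 (2.47), Gfi1b (4.34), Hbb-bh1 (3.25), Hbq1b (0), Hbq1a (0), Ikzf1 (2.48), Slc25a37 (2.44) and Uqcrc1 (5.04). All gene levels are log2(RPKM + 1). This cell also had the most detected genes of the 5.

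Cell 12 stood apart in the median level of the integrated stress response list (3.87) and in Bcl2l1 (1.04), Bnip3l (4.65), Gclm (6.94), Klf3 (7.48), Ncaph (0.15) and Timm8b (0). Cell 15 stood apart in Dazap2 (6.46), E2f2 (3.58), Fam132b (4.56), Nfe2 (0), Slc48a1 (0.59) and Stom (0.98). Cell 26 stood apart in the stress genes Ddit3 (3.71) and Hmox1 (6.75) and in Ccnd2 (1.38), and cell 38 in Atg4a (0.95). No cause was tested for any of these values.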

How the results depend on the processing

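Of 1472 differences of the 92 named genes under the alternatives, 1347 moved by less than the spread over cells, 120 moved by more and 5, from a size of at least 1, changed sign: Sox6 (0.32), Tal1 (0.64) and Hbq1a (0.060) after quantile normalization, Hbq1a when 1 cell was left out (-1.53 to 0.24 over the 5 cells, the latter without cell 23), and Eif2ak1 (0.11) against the 6 wild-type cells in the Ter119 range. Signs differed over the 4 scalings for 9 of the 92 genes: those of Sox6, Tal1 and Hbq1a, of E2f2, Ftl1, Nfe2 and Tfrc, which were below 0 with 1 sum, and of Hba-a1 and Hbb-b1, which went to 0 after quantile normalization. Of 479 list medians, 439 moved by less than the spread, 40 by more and none changed sign from a size of at least 1. A pseudocount of 10 left 148 genes higher and 496 lower, no filter gave 1533 lower, and a filter at a mean of 3 left 138 higher and 293 lower. Quantile normalization gave 628 higher and 643 lower with a median difference of 0.025, and the 8 wild-type cells in the range of detected genes gave 524 higher and a ribosomal protein median of 3.26. Genes without overlap numbered 2 higher without a filter and 0 higher at a mean of 3. They numbered 1 higher and 8 lower with 1 sum, and 8 higher and 2 lower with 1 sum outside globins. After quantile normalization there were 10 higher and 2 lower. There were 25 lower against the Ter119 range, and 6 higher and 13 lower against the range of detected genes. Leaving out each Flvcr-deleted cell gave 1 to 3 higher and 8 to 14 lower without overlap and a respiratory chain median of -0.17 to 0.90. No cause of these changes was tested, though fewer cells or genes enter some of them. With 5 cells under 1 label prefix, differences between mice or runs cannot be told from genotype. No paired analysis was possible because cell numbers only name the cells and no test was made.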
